A study of Mus musculus with 11 samples.

Results

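Small RNAs that miRNA catalogues list although their precursors overlap a small Cajal body RNA (scaRNA), a small nucleolar RNA (snoRNA) or a transfer RNA (tRNA) were followed through mouse embryonic stem cells that differ in DGCR8. They were chosen by name from the table of read counts: mmu-miR-1839-5p, mmu-miR-1839-3p, mmu-miR-1291 and mmu-miR-1983, that is 4 of the 1966 mature miRNAs listed, and all 4 were among the 730 that passed the filter on low counts. The libraries came from bulk cultures, so that fewer cells making a small RNA and less of it per cell cannot be told apart. The 3 induced DGCR8-E518K libraries (clones 8, 13 and 15; genotype given as E518K/E518K) came from cells transfected with pSB ET iE-FlagDGCR8-E518K, a vector for Flag-tagged DGCR8 that doxycycline switches on, together with pCMV(CAT)-SB100X, which makes the Sleeping Beauty transposase that inserts such vectors. The 3 knockout libraries (KO; genotype DGCR8 -/-) came from cells that were not transfected and received doxycycline as well. The 3 induced wild-type libraries (WT; clones 10, 12 and 16; genotype wt/wt) carried pSB ET iE-FlagDGCR8-wt and the same transposase plasmid. E518K clone 8 and WT clone 10 were each also sequenced once without doxycycline, to look for DGCR8 made by the uninduced vector. Doxycycline was given at 300 ng/mL for 48 h to every library except these last 2. All cells shared the strain label NBA1-19349, were grown without feeder cells in 2i medium with LIF, and none of the labels gives the insertion sites or the amount of DGCR8 protein made. The series' design text speaks of separate clones in every condition, but the titles of all 3 KO libraries name clone 261, so differences among the KO libraries may be technical, and no second KO clone was measured.

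DGCR8 binds the stem of a primary miRNA transcript and positions the nuclease Drosha, and this complex, the microprocessor, releases the hairpin that Dicer later cuts into mature miRNAs. Some small RNAs reach Dicer by other routes. A mirtron is a short intron that splicing and debranching turn into a hairpin, some hairpins are formed directly at the 5′ end of a capped transcript, and folded housekeeping RNAs such as snoRNAs, scaRNAs and tRNAs can be cut into pieces of miRNA size. H/ACA snoRNAs guide the conversion of uridine to pseudouridine in ribosomal RNA, scaRNAs do this for the RNAs of the spliceosome, and tRNAs carry amino acids to the ribosome.

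The mature sequences of 3 of the 4 small RNAs, from RefSeq for the build GRCm38.p6, are shown because they decide which messages each could pair with. Capitals mark the seed, bases 2 to 8 from the 5′ end.
miR-1839-5p: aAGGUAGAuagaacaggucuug
miR-1291: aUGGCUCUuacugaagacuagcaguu
miR-1983: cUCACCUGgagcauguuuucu
The 3 seeds differ from each other. The seeds of miR-1839-5p and miR-1291 were shared with no other mature mouse miRNA of the RefSeq table, and that of miR-1983 was shared with miR-412-3p. The lengths were 22 nt for miR-1839-5p, 26 nt for miR-1291 and 21 nt for miR-1983.

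The hairpins are shown because they place each small RNA within a longer housekeeping RNA. Capitals mark the mature small RNA.
Mir1839: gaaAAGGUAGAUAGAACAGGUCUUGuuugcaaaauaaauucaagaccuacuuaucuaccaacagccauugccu
Mir1291: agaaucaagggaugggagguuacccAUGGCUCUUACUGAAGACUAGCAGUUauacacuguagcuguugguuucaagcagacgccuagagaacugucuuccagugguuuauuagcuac
Mir1983: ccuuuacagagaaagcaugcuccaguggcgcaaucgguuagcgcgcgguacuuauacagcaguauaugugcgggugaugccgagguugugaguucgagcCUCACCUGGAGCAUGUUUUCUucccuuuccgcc

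Mir1839 lies at chr7:81529916-81529988 on the plus strand, with miR-1839-5p at chr7:81529919-81529940. The GENCODE M21 annotation places there a scaRNA gene of 127 nt that holds all 22 bases of miR-1839-5p, inside the lincRNA gene 2900076A07Rik, where 1 of the 3 transcripts that span the hairpin has it in exon 2. Mir1291 lies at chr15:98519762-98519878 on the minus strand, with miR-1291 at chr15:98519828-98519853, in an intron of Kansl2, which codes for a subunit of a histone acetyltransferase complex; none of the 4 transcripts that span it has it in an exon. It overlaps the H/ACA snoRNA Snora34. The GENCODE gene model of Snora34 (138 nt) begins at the first base of miR-1291 and holds all 26 of its bases, whereas the RefSeq model (118 nt) begins later and holds only the last 7, so the annotations differ on whether miR-1291 is the 5′ end of the snoRNA. Mir1983 lies at chr13:21896918-21897049 on the minus strand, with miR-1983 at chr13:21896930-21896950. It contains the RefSeq tRNA gene n-TItat14 (94 nt), a tRNA for isoleucine, for which the RefSeq table gives no strand. Of miR-1983, 13 bases lie within the coordinates of that gene and the last 8 lie outside them. Other genomic copies of this tRNA were not searched. The rule by which reads were counted, and whether it used strand, are not stated in the labels, so that reads of the longer scaRNA, snoRNA or tRNA cannot be told apart from those of the small RNA itself.

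**Figure D1:**
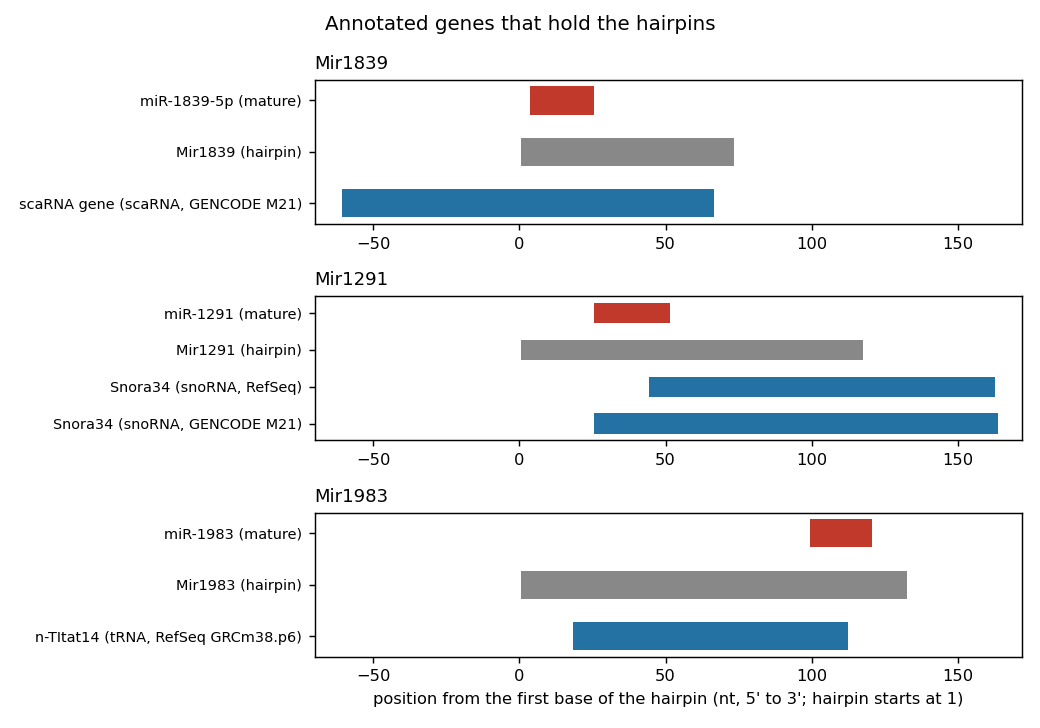
Extent of each hairpin (grey), its mature small RNA (red) and the overlapping housekeeping RNA gene (blue), in nucleotides from the first base of the hairpin, which is position 1. miR-1839-5p lies within the scaRNA gene, miR-1291 begins where the GENCODE model of Snora34 begins, and miR-1983 straddles a border of the tRNA gene.

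Total miRNA counts ran from 1050564 to 1797240 in induced E518K, from 166676 to 208846 in KO and from 3394216 to 6128734 in induced WT, with 264507 in untreated E518K and 1421247 in untreated WT. Of the counts between 1 and 40, 90.3% were even, as if most small RNAs had been counted 2 times each, so intervals below were computed on counts divided by 2. Cell type markers were summed in each library. The 5 arms of the miR-290 cluster that define mouse embryonic stem cells (miR-291a-3p, miR-292a-3p, miR-293-3p, miR-294-3p and miR-295-3p) held 2.72% to 3.91% of miRNA counts in induced E518K, 0.0198% to 0.0437% in KO and 5.03% to 7.55% in induced WT. They held 0.273% in untreated E518K and 3.41% in untreated WT. They are products of the microprocessor, so their near absence from KO says nothing of the identity of those cells. Of 6 fibroblast miRNAs, all 6 had counts in induced E518K and in induced WT, while miR-145a-3p was at 0 in KO; together they held 0.163% to 0.22% of counts in induced E518K, 1.23% to 1.74% in KO and 0.221% to 0.318% in induced WT, with 0.905% in untreated E518K and 0.359% in untreated WT. The 3 muscle miRNAs and the liver miRNA miR-122-5p were scarcer and were likewise higher in KO than in both other induced groups. The muscle miRNAs together held 0.00127% to 0.00314% in induced E518K, 0.01% to 0.0324% in KO and 0.000825% to 0.00157% in induced WT, with 0.0136% in untreated E518K and 0.00141% in untreated WT, where miR-133a-3p and miR-206-3p were at 0. miR-122-5p held 0.000952% to 0.00122% in induced E518K, 0.0108% to 0.0177% in KO and 6.53e-05% to 0.000303% in induced WT, with 0.0121% in untreated E518K and 0.000141% in untreated WT. The 3 neuron miRNAs were lowest in KO, at 0.0129% to 0.0168%. They held 0.105% to 0.151% in induced E518K and 0.214% to 0.45% in induced WT. The 5 blood miRNAs held 0.00591% to 0.0198% in KO, below induced E518K (0.0219% to 0.0453%) and overlapping induced WT (0.0104% to 0.0358%). In untreated E518K and WT the neuron miRNAs held 0.0476% and 0.0947%, and the blood miRNAs 0.0106% and 0.0114%. The part of these markers in the results below was not tested.

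After TMM scaling all 4 small RNAs were more abundant in induced E518K and in KO than in induced WT, and all 4 were less abundant in induced E518K than in KO. On another scale, that of other miRNAs made without DGCR8, the log2 fold change was negative for 3 of 4 in E518K against WT and for 4 of 4 in KO against WT. In raw counts miR-1983, whose hairpin contains the tRNA gene, had 6566, 5479 and 3410 counts in E518K clones 8, 13 and 15, and 4909, 6410 and 6571 in the KO libraries, against 755, 1572 and 2558 in WT clones 10, 12 and 16. The WT libraries thus held fewer reads of miR-1983 than every KO library, although their totals of miRNA reads were far larger. miR-1839-5p, in the scaRNA gene, had 5843, 3458 and 3387 counts in E518K and 7093, 7419 and 8006 in KO, against 2011, 2143 and 4215 in WT. miR-1839-3p, from the other arm of the same hairpin, was scarce, with 46, 18 and 22 counts in E518K and 22, 54 and 55 in KO, against 21, 18 and 52 in WT. miR-1291, at the snoRNA gene, was scarce too, with 31, 81 and 70 counts in E518K and 64, 118 and 187 in KO, against 29, 32 and 61 in WT. Raw counts of E518K overlapped those of WT for each of the 4 except miR-1983, and those of KO for each except miR-1839-5p. Those of KO and WT overlapped only for miR-1839-3p. How many of all miRNAs overlap between these groups was not counted, so the overlaps are a description. The order of overlapping groups depends on how libraries of unequal size are scaled.

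Levels below are CPM after TMM scaling, that is, counts relative to a library size adjusted by a trimmed mean of the log ratios between libraries, a step built on the assumption that most miRNAs change little. After it the median of all tested miRNAs was still at a log2 fold change of -3.54 in KO against WT. miR-1839-5p stood at 3824, 2877 and 3413 CPM in E518K clones 8, 13 and 15 and at 15128, 22279 and 24437 CPM in the KO libraries, against 987, 651 and 782 CPM in WT clones 10, 12 and 16. The 3 groups did not overlap. miR-1839-3p stood at 30.1, 15.0 and 22.2 CPM in E518K and at 46.9, 162 and 168 CPM in KO, against 10.3, 5.47 and 9.64 CPM in WT. Its groups did not overlap either, although KO replicate 1 lay closer to the E518K clones than to the other KO libraries. miR-1291 stood at 20.3, 67.4 and 70.5 CPM in E518K and at 137, 354 and 571 CPM in KO, against 14.2, 9.72 and 11.3 CPM in WT. E518K clone 8 was the low library of its group and KO replicate 1 the low library of the KO. miR-1983 stood at 4298, 4558 and 3436 CPM in E518K and at 10470.2, 19249 and 20057 CPM in KO, against 371, 477 and 474 CPM in WT, again with no overlap. KO replicate 1 was thus the lowest KO library for each of the 4. How many of all miRNAs keep the groups apart on this scale was not counted.

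**Figure D2:**
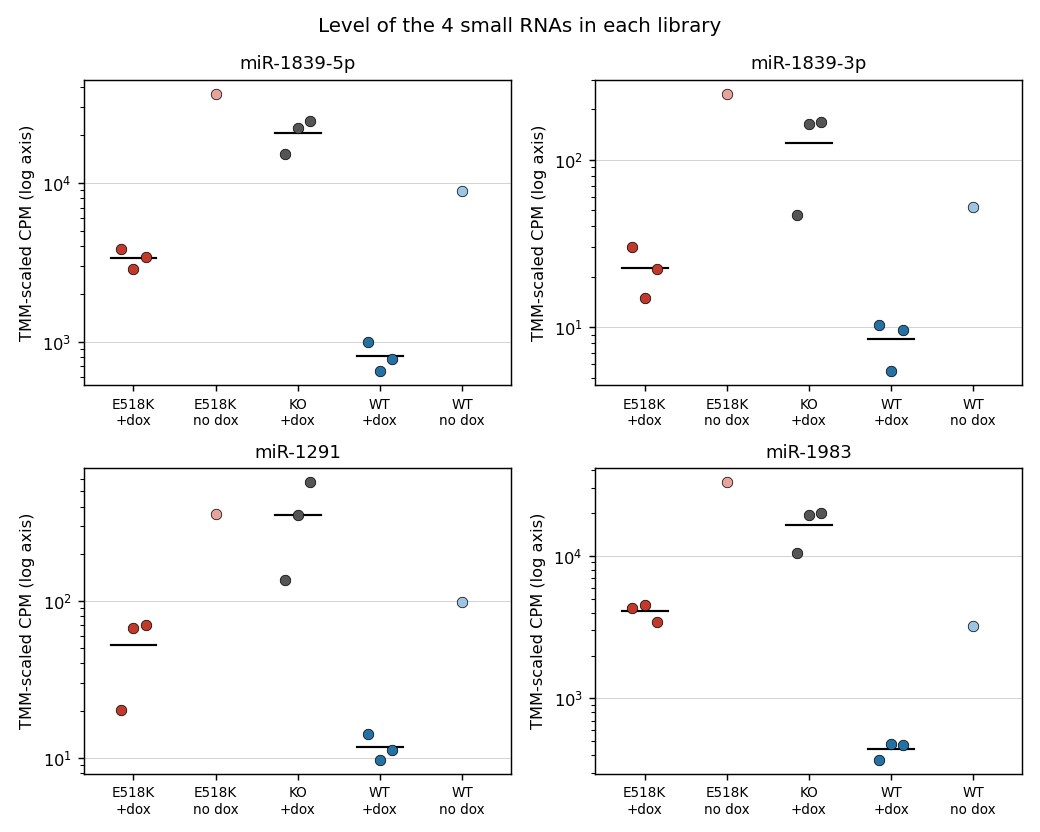
TMM-scaled CPM of each small RNA in each of the 11 libraries (points, log axis), with the mean of each group of 3 libraries as a bar; groups of 1 library have no bar. In each panel the induced E518K points lie between the KO points above them and the induced WT points below them, and the untreated library of each vector lies above its induced libraries.

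Induced E518K was compared with induced WT to ask what the mutant leaves changed when it is the DGCR8 supplied. All 4 small RNAs rose (edgeR quasi-likelihood test, Benjamini-Hochberg adjustment over all 730 miRNAs tested, threshold 0.05); 28.2% of all tested miRNAs did so. miR-1983 was 9.29-fold higher, averaging 4097 ± 587 CPM in E518K and 441 ± 60.8 CPM in WT (SD, n = 3 each), a log2 fold change of 3.22 ± 0.42 (SE; edgeR adjusted p = 5.7e-13). miR-1291 was 4.46-fold higher, at 52.7 ± 28.1 CPM in E518K and 11.8 ± 2.29 CPM in WT, a log2 fold change of 2.16 ± 0.46 (edgeR adjusted p = 9.6e-06). miR-1839-5p was 4.18-fold higher, with a log2 fold change of 2.06 ± 0.40 (edgeR adjusted p = 1.4e-06). Its partner arm miR-1839-3p had the smallest difference, a log2 fold change of 1.41 ± 0.51 (edgeR adjusted p = 0.011). The median over the 4 was 2.11 on the log2 scale and that over all tested miRNAs was -0.14. The call of miR-1839-3p was lost without WT clone 10 (adjusted p = 0.067), WT clone 12 (0.18) or E518K clone 8 (0.12). Without WT clone 16 the log2 fold changes were larger, at 3.96 for miR-1983, 2.89 for miR-1291, 2.77 for miR-1839-5p and 2.23 for miR-1839-3p.

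KO was compared with induced WT to show the cells without any DGCR8 beside the cells with the normal protein. All 4 small RNAs rose again, beside 30.0% of all tested miRNAs. miR-1983 was 37.6-fold higher, at 16592 ± 5317 CPM in KO and 441 ± 60.8 CPM in WT (log2 5.23 ± 0.46, edgeR adjusted p = 4.9e-27). miR-1291 was 30-fold higher, at 354 ± 217 CPM in KO and 11.8 ± 2.29 CPM in WT (log2 4.91 ± 0.49, edgeR adjusted p = 7.2e-21). miR-1839-5p was 25.6-fold higher, at 20615 ± 4872 CPM in KO and 806 ± 169.5 CPM in WT (log2 4.68 ± 0.45, edgeR adjusted p = 4.9e-23). miR-1839-3p was 14.6-fold higher, at 126 ± 68.2 CPM in KO and 8.47 ± 2.62 CPM in WT (log2 3.87 ± 0.53, edgeR adjusted p = 2.7e-12). The median over the 4 was 4.79 and that over all tested miRNAs was -3.54, with 58.4% of all tested miRNAs lower. With counts divided by 2 before the fit, the median over the 4 was 3.97. The fold for miR-1839-5p is set by libraries outside the comparison too, since TMM factors were computed over all libraries: its log2 value was 3.90 without E518K clone 15, 5.37 without E518K clone 8, 5.28 without E518K clone 13, 5.35 without KO replicate 2 and 5.33 without WT clone 10. For the other 3 it also moved by over 1.5-fold without E518K clone 15 (miR-1983 4.47, miR-1291 4.17, miR-1839-3p 3.11) and without E518K clone 8 (miR-1983 5.88, miR-1291 5.53, miR-1839-3p 4.46), and for miR-1291 without KO replicate 2 (5.53).

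Induced E518K was also compared with KO, which shows what is left of the KO levels once the mutant is made. All 4 fell, beside 26.2% of all tested miRNAs. The log2 fold change was -2.75 ± 0.45 for miR-1291 (edgeR adjusted p = 6.4e-09), -2.61 ± 0.41 for miR-1839-5p (1.2e-09), -2.46 ± 0.51 for miR-1839-3p (4.8e-06) and -2.02 ± 0.40 for miR-1983 (1.5e-06). As a level, miR-1983 in E518K was 0.247 of that in KO and miR-1291 was 0.149 of it. The median over the 4 was -2.53, where the median of all tested miRNAs was 1.35. With counts divided by 2 before the fit it was -1.67, with all 4 still called. Every one of the 9 induced libraries except KO replicate 1 moved at least 1 of these values by over 1.5-fold when it was left out, within -3.39 to -2.04 for miR-1291, -3.33 to -1.80 for miR-1839-5p, -3.22 to -1.68 for miR-1839-3p and -2.68 to -1.07 for miR-1983, and all 4 calls held in each of these 9 fits. Under the authors' own scaling edgeR called none of the 4 lower, beside 8.36% of all tested miRNAs (log2 -0.89 for miR-1291, -0.81 for miR-1839-5p, -0.67 for miR-1839-3p and -0.15 for miR-1983). That scaling sets 1 total for each group, 85006 in KO and 683476 in induced E518K, so it builds a fixed difference into this comparison.

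The share of all miRNA counts held by a small RNA sets it against the total of its own library, which is the same as scaling by total counts, so that a change in the other miRNAs moves it too. Together the 4 held 0.695%, 0.86% and 0.486% of miRNA counts in E518K clones 8, 13 and 15 and 5.79%, 8.40% and 8.75% in the KO libraries, against 0.083%, 0.0614% and 0.116% in WT clones 10, 12 and 16. The groups did not overlap, and the means were 0.68% ± 0.188 in E518K, 7.65% ± 1.62 in KO and 0.0868% ± 0.0275 in WT (SD, n = 3 each). An exact two-sided permutation test gave p = 0.1 for each of the 3 differences, the smallest that 3 libraries against 3 allow. miR-1983 and miR-1839-5p made up nearly all of these counts. miR-1983 alone held 0.376% ± 0.141 of counts in E518K, 3.36% ± 0.874 in KO and 0.0303% ± 0.0112 in WT.

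Libraries made without doxycycline were set beside the induced libraries of the same vector. No untransfected cells were sequenced without doxycycline, so an effect of the drug cannot be told apart from one of the induced vector. In untreated E518K clone 8, miR-1839-5p stood at 36600.3 CPM, miR-1839-3p at 248, miR-1291 at 356 and miR-1983 at 32885. In untreated WT clone 10 they stood at 8956, 52.5, 99.2 and 3203 CPM in the same order. Within E518K clone 8 the induced library was lower than the untreated one by a log2 difference of -3.26 for miR-1839-5p, -3.04 for miR-1839-3p, -4.13 for miR-1291 and -2.94 for miR-1983. Within WT clone 10 the log2 differences, induced minus untreated, were -3.18, -2.35, -2.80 and -3.11. All libraries were also fitted together with the clone as a block and the KO libraries as 1 block. This left 3 residual degrees of freedom, which come from the KO libraries as well as from these pairs. In it 1 common change upon induction was -3.22 ± 1.07 for miR-1839-5p, -2.70 ± 1.29 for miR-1839-3p, -3.46 ± 1.43 for miR-1291 and -3.02 ± 1.09 for miR-1983 on the log2 scale (edgeR adjusted p = 0.078, 0.2, 0.14 and 0.098). In that blocked fit edgeR called 0 of 4, with 4 of 4 at an unadjusted p under 0.05 and 20 of all 730 miRNAs called; without the block the mean of both inductions was called for 4 of 4. Of all miRNA counts, the 4 held 8.34% in untreated E518K (Clopper-Pearson 95% interval 8.19% to 8.49%) and 0.594% in untreated WT (0.576% to 0.612%), intervals that cover counting error only.

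With all 3 induced clones set against the single untreated library, whose spread was taken from the replicated groups, all 4 fell upon induction of E518K, beside 24.4% of all tested miRNAs. The log2 fold changes, induced over untreated, were -3.45 ± 0.62 for miR-1839-3p, -3.44 ± 0.50 for miR-1839-5p, -3.01 ± 0.49 for miR-1983 and -2.77 ± 0.55 for miR-1291 (edgeR adjusted p = 3.9e-07, 2.4e-10, 2.2e-08 and 5.1e-06). All 4 also fell upon induction of WT, beside 18.9% of all tested miRNAs. There the log2 fold changes were -3.47 ± 0.50 for miR-1839-5p, -3.08 ± 0.57 for miR-1291, -2.86 ± 0.50 for miR-1983 and -2.63 ± 0.66 for miR-1839-3p (edgeR adjusted p = 4.6e-10, 2.7e-06, 2.9e-07 and 0.00064). The change with doxycycline did not differ detectably between the vectors for any of the 4: the interaction, WT minus E518K, was -0.03 ± 0.77 for miR-1839-5p, 0.83 ± 0.99 for miR-1839-3p, -0.31 ± 0.84 for miR-1291 and 0.14 ± 0.77 for miR-1983 on the log2 scale. In that test edgeR called 0 of 4, with 0 of 4 at an unadjusted p under 0.05, and 21.5% of all tested miRNAs in either direction. With standard errors of 0.77 to 0.99, a 2-fold difference between the vectors, 1 on the log2 scale, could easily have been missed. Leaving out WT clone 16, which is outside that comparison, brought the E518K values to -2.17 for miR-1839-3p, -2.14 for miR-1839-5p, -1.74 for miR-1983 and -1.42 for miR-1291, the last no longer called (adjusted p = 0.051). For WT, leaving out clone 12 gave -2.39 for miR-1291, -2.79 for miR-1839-5p and -1.80 for miR-1839-3p, whose call was lost (adjusted p = 0.095), and leaving out clone 10 gave -2.14 for miR-1983. Under the authors' scaling 1 of 4 was called lower on induction of E518K, beside 7.67% of all tested miRNAs, and 3 of 4 on induction of WT, beside 9.59%. On the scale of the other DGCR8-independent miRNAs described below edgeR called 0 of 4 in each, where 54.1% and 65.8% of all tested miRNAs were called in either direction.

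Untreated cells carry a vector meant to be silent without doxycycline, and were set beside the KO for that reason. The 5 miR-290 arms were nevertheless above KO in both. Their median log2 fold change was 9.38 in untreated WT, where that of all tested miRNAs was 1.6. In untreated E518K it was 4.5, where that of all tested miRNAs was 0.455. The amount of DGCR8 in untreated cells was not tested. Untreated WT was lower than KO for 2 of the 4, beside 13.4% of all tested miRNAs that were lower. miR-1983 was at 0.193 of its KO level (log2 -2.37 ± 0.64, edgeR adjusted p = 0.00053) and miR-1291 at 0.282 of it (log2 -1.83 ± 0.67, edgeR adjusted p = 0.013). miR-1839-5p at log2 -1.20 ± 0.59 and miR-1839-3p at -1.24 ± 0.73 did not pass (edgeR adjusted p = 0.07 and 0.14). How many of the 4 passed depended on the libraries used, with 1 without E518K clone 15, 3 without KO replicate 1, and 4 without KO replicate 2, KO replicate 3, WT clone 10, WT clone 12, E518K clone 8 or E518K clone 13. Each of these last 6 libraries moved all 4 values by over 1.5-fold when it was left out. Over the 9 fits without 1 induced library 379 to 427 of all miRNAs were called in either direction. In these fits the log2 value ran from -3.51 to -2.08 for miR-1983, -2.99 to -1.56 for miR-1291, -2.41 to -0.90 for miR-1839-5p and -2.34 to -0.96 for miR-1839-3p. Untreated E518K was not shown to differ from KO for any of the 4, where 15.3% of all tested miRNAs differed in either direction. Its log2 differences were 1.00 ± 0.64 for miR-1839-3p, 0.99 ± 0.52 for miR-1983, 0.83 ± 0.52 for miR-1839-5p and 0.02 ± 0.60 for miR-1291 (edgeR adjusted p = 0.38, 0.23, 0.37 and 1). In that comparison edgeR and DESeq2 each called 0 of 4, and 0 of 4 had an unadjusted edgeR p under 0.05. edgeR called 2 of 4 higher without KO replicate 1 and 3 of 4 higher without E518K clone 15. Over the 9 fits without 1 induced library 64 to 214 of all miRNAs were called in either direction. Every one of the 9 induced libraries except KO replicate 1 moved at least 1 of these values by over 1.5-fold when left out, within 0.37 to 1.89 for miR-1839-3p, 0.33 to 1.89 for miR-1983, 0.11 to 1.74 for miR-1839-5p and -0.66 to 0.89 for miR-1291.

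After TMM scaling the order of the 5 group means was the same for each of the 4 except miR-1983. For miR-1839-5p untreated E518K was highest, followed by KO, untreated WT, induced E518K and induced WT, with untreated E518K and KO not shown to differ, nor untreated WT and KO. miR-1839-3p had the same order of means, but its untreated WT library at 52.5 CPM lay inside the KO range of 46.9 to 168 CPM. For miR-1291 the untreated E518K library at 356 CPM lay inside the KO range of 137 to 571 CPM, and untreated WT at 99.2 CPM lay above all induced E518K libraries. The latter depended on the scaling. As a share of miRNA counts miR-1291 held 0.00479% in untreated WT, below E518K clones 13 (0.00771%) and 15 (0.00493%). miR-1983 was the only one of the 4 for which untreated WT, at 3203 CPM, lay below every induced E518K library.

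miR-1839 gives reads from both arms of its hairpin, and the balance between the arms can be read within a library without any scaling. The 5p arm held 99.2%, 99.5% and 99.3% of miR-1839 counts in E518K clones 8, 13 and 15 and 99.7%, 99.3% and 99.3% in the KO libraries, against 99.0%, 99.2% and 98.8% in WT clones 10, 12 and 16. Every E518K and KO library lay above every WT library. The mean difference was 0.38 percentage points for E518K minus WT and 0.457 for KO minus WT (exact two-sided permutation test, p = 0.1 each, the smallest possible; 0.15 after Benjamini-Hochberg adjustment over 3 comparisons), and -0.0767 for E518K minus KO (exact p = 0.7). The untreated libraries stood at 99.3% for E518K and 99.4% for WT. With 18 to 78 counts of the 3p arm in a library, the 95% Clopper-Pearson intervals overlapped between many of the libraries, for example 98.9% to 99.5% in E518K clone 8 and 98.2% to 99.5% in WT clone 10.

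Other miRNAs that do not need DGCR8 give a measure for the 4. Set beside them were 9 arms: miR-320 and miR-484, whose hairpins form at the start of a transcript, and the mirtrons miR-877, miR-702 and miR-1224. Of these, miR-1224-3p had no count in any library and 8 were tested. Between induced E518K and induced WT 6 of the 8 rose (median log2 fold change 2.95), beside 28.2% of all tested miRNAs. Between KO and induced WT 7 of the 8 rose (median 4.93), beside 30.0% of all tested. Between induced E518K and KO 6 of the 8 fell (median -2.17), beside 26.2% of all tested. Only 3 of the 8 fell in that last comparison without KO replicate 1, without WT clone 16 or without E518K clone 15. Over the fits without 1 induced library 443 to 488 of all miRNAs were called there in either direction. The number that fell was lower in other settings too. Again 3 of the 8 fell with counts divided by 2, beside 126 of 600 tested miRNAs, and under the authors' scaling, beside 8.36% of all tested. miR-320-3p, for example, averaged 1751 CPM in E518K and 13484 CPM in KO, against 188 CPM in WT, and miR-484 averaged 2805 CPM in E518K and 7502 CPM in KO, against 344 CPM in WT.

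Relative to the summed count of these miRNAs in the same library, miR-1839 was lower in E518K and KO than in WT. This holds for the sum and not for each arm in it. After TMM scaling the log2 fold changes of the 8 tested arms in KO against WT ran from 1.65 to 6.52. miR-320-3p was at 6.16 and miR-484 at 4.45, beside 4.68 for miR-1839-5p. The log2 ratio of miR-1839-5p to that sum was -0.57, -1.23 and -0.80 in E518K clones 8, 13 and 15 and -0.94, -0.95 and -0.84 in KO, against 0.53, -0.30 and 0.15 in WT clones 10, 12 and 16. No E518K or KO library reached a WT library, and the mean differences were -0.99 for E518K minus WT and -1.04 for KO minus WT (exact permutation p = 0.1 each, the smallest possible). For miR-1839-3p they were -1.67 and -1.97 (exact p = 0.1 each). The separation of E518K from WT depended on the comparators: with the miR-877 and miR-702 arms alone these groups overlapped, with a difference of -0.677 for miR-1839-5p (exact p = 0.5) and -1.35 for miR-1839-3p (exact p = 0.3), while with miR-320-3p and miR-484 alone it was -1.0 and -1.68 (exact p = 0.1 each). KO minus WT was negative without overlap under both, from -1.87 to -0.615 for miR-1839-5p and from -2.81 to -1.55 for miR-1839-3p (exact p = 0.1 each). For miR-1291 they were -1.09 (exact p = 0.1) and -1.0 (exact p = 0.2, with overlapping groups), and -0.77 (exact p = 0.1) and -1.84 (exact p = 0.1) with the mirtron arms alone, against -1.1 (exact p = 0.3) and -0.579 (exact p = 0.4) with miR-320-3p and miR-484 alone. The log2 ratio of miR-1983 was -0.40, -0.57 and -0.79 in E518K and -1.47, -1.16 and -1.12 in KO, against -0.89, -0.75 and -0.57 in WT. For miR-1983 the E518K and WT groups overlapped, with a difference of 0.15 for E518K minus WT (exact p = 0.4). Its KO libraries lay below both, with differences of -0.52 for KO minus WT and 0.67 for E518K minus KO (exact p = 0.1 each). With miR-320-3p and miR-484 alone as comparators these were -0.0965 (exact p = 0.4) and 0.235 (exact p = 0.2), so that the groups overlapped, and with the mirtron arms alone they were -1.35 and 1.82 (exact p = 0.1 each). Over the 12 such tests no Benjamini-Hochberg adjusted value was under 0.17, which this design cannot lower to 0.05.

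**Figure D3:**
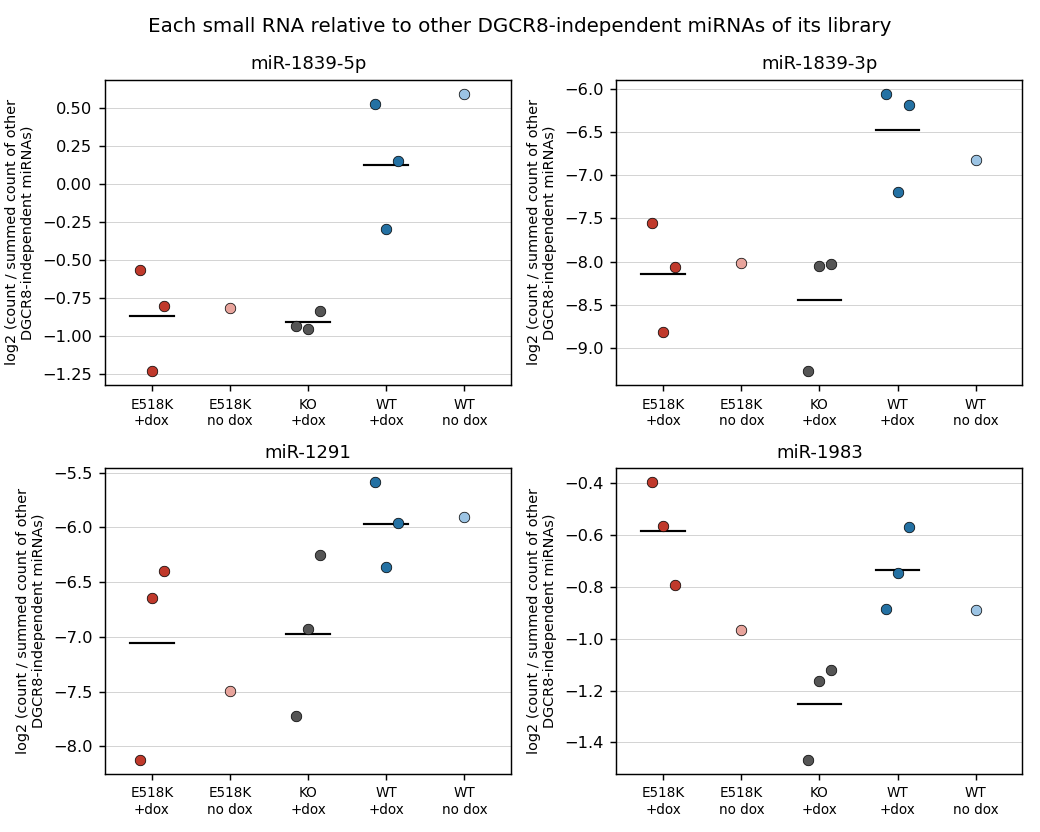
Log2 of the count of each small RNA over the summed count of the other DGCR8-independent miRNAs of the same library (points; bars are means of 3 libraries). For miR-1839-5p and miR-1839-3p the induced WT points lie above all E518K and KO points, whereas for miR-1983 the induced E518K and WT points overlap and the KO points lie below both.

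The sign against WT thus depended on the scale for all of the 4 except miR-1983 in E518K against WT, which was positive on each of the 5 scales tried. When library sizes were set by the summed counts of the other DGCR8-independent miRNAs, the median of all tested miRNAs moved to -3.15 on the log2 scale for induced E518K against induced WT and to -8.69 for KO against induced WT. On that scale edgeR called 0 of 4 between E518K and KO, where 59.9% of all tested miRNAs were called in either direction. The log2 fold change of E518K against WT was -1.64 for miR-1839-3p and -1.01 for miR-1839-5p, both called lower, and -0.94 for miR-1291 and 0.15 for miR-1983, neither called (edgeR adjusted p = 0.0044, 0.014, 0.089 and 0.74); of all tested miRNAs 70.1% were lower. For KO against WT it was -1.93 for miR-1839-3p and -1.07 for miR-1839-5p, both called lower, and -0.89 for miR-1291 and -0.52 for miR-1983, neither called (edgeR adjusted p = 0.00065, 0.0078, 0.093 and 0.21), beside 74.9% of all tested miRNAs that were lower. Of the 8 tested arms that make up this scale, 4 were themselves called lower in KO than in WT, beside 74.9% of all tested miRNAs. In E518K against WT 2 of the 8 were lower, beside 70.1%. Total counts, DESeq2 size factors and the authors' scaling left all 4 positive in both comparisons. Under the authors' scaling the call of miR-1839-3p in E518K against WT was lost (log2 1.25, adjusted p = 0.059). In KO against WT the log2 fold change of miR-1983 was 6.79 with total counts and 3.33 with the authors' scaling.

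**Figure D4:**
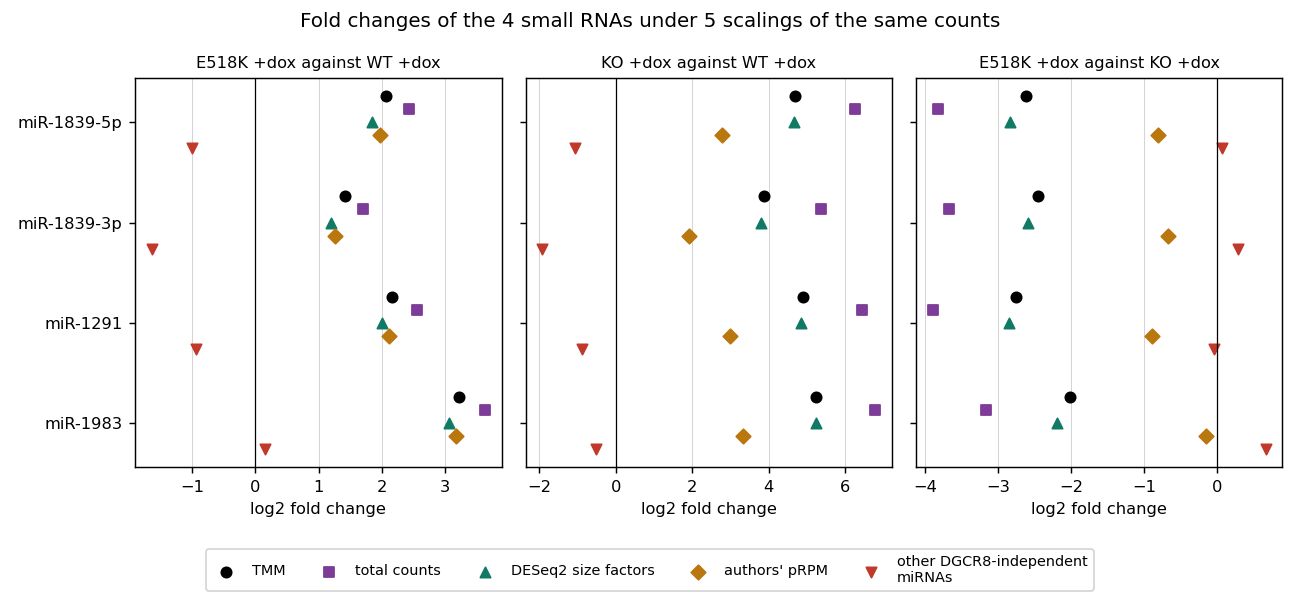
Log2 fold change of each small RNA in 3 comparisons (panels) under 5 ways of scaling the same counts (symbols), with no change at 0. TMM, total counts, DESeq2 size factors and the authors' pRPM place all 4 above 0 against WT, and scaling by the other DGCR8-independent miRNAs places 3 of 4 below 0 for E518K and 4 of 4 below 0 for KO.

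The 2 host classes of the 4 were widened to all listed miRNAs whose hairpin overlaps, on the same strand, a gene annotated as a snoRNA or scaRNA. Hairpin positions were found for 1762 of the 1966 miRNAs (89.6%). Besides Mir1839 and Mir1291 there were 12 such hairpins with 20 arms, of which 18 were tested, among them miR-664 in Snora36b, miR-3068, miR-677, and miR-1843a and miR-1843b in Scarna3b and Scarna3a, near-identical copies whose reads may be split. No hairpin other than Mir1983 overlapped an annotated tRNA gene. Between induced E518K and induced WT 17 of the 18 rose (median log2 fold change 2.94), beside 28.2% of all tested miRNAs. The exception was miR-3084-3p (0.89 ± 0.61, edgeR adjusted p = 0.19). Between KO and induced WT 18 of 18 rose (median 5.81), beside 30.0% of all tested. Between induced E518K and KO 18 of 18 fell (median -2.88), beside 26.2% of all tested. Under the authors' scaling 6 of 18 did (median -1.08), beside 8.36% of all tested. Upon induction 18 of 18 fell in E518K, beside 24.4% of all tested, and 13 of 18 in WT, beside 18.9%. In E518K it was 10 of 18 without WT clone 16, a library outside that comparison. Over the fits without 1 induced library 304 to 376 of all miRNAs were called there in either direction. Under the authors' scaling 8 of 18 fell upon induction of E518K, beside 7.67% of all tested. miR-6516-5p, in a scaRNA gene, had the largest fold of them in E518K against WT (log2 4.44 ± 0.73), and miR-5121, in Snord33, had the smallest in KO against WT (2.46 ± 0.44). Against that list miR-1983 was close to the median in E518K against WT, while miR-1839-3p was among the smaller folds in both comparisons. On the scale of the other DGCR8-independent miRNAs 0 of the 18 were higher and 4 lower in E518K than in WT (edgeR), beside 0.822% higher and 70.1% lower of all tested miRNAs. In KO against WT 2 of the 18 were higher and 4 lower, beside 2.47% higher and 74.9% lower of all tested miRNAs.

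**Figure D5:**
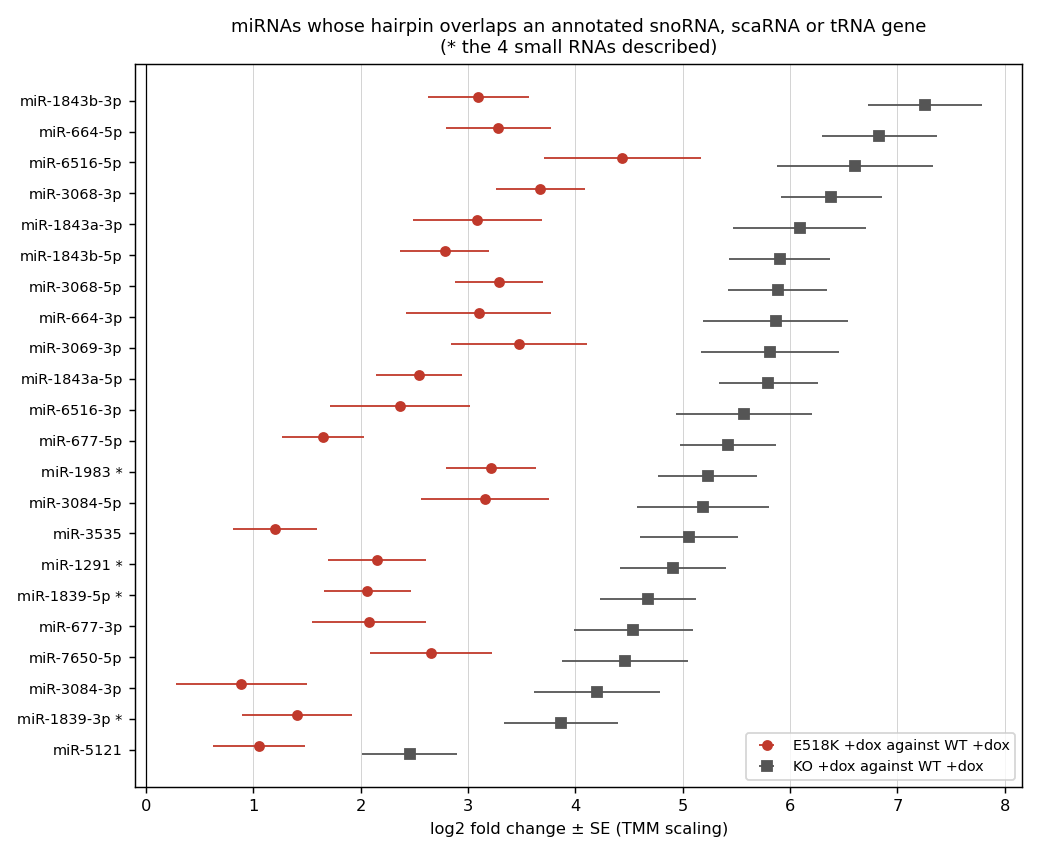
Log2 fold change (± SE, TMM scaling) of every tested miRNA whose hairpin overlaps an annotated snoRNA, scaRNA or tRNA gene, for induced E518K (circles) and KO (squares) against induced WT, sorted by the KO value. All KO values and all E518K values lie above 0, and miR-1839-3p, miR-1839-5p, miR-1291 and miR-1983 (asterisks) fall within the range of the other miRNAs.

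Profiles across the libraries were compared by Pearson's r of log2(CPM + 1) over the 11 libraries, which share the 5 groups and the TMM scale, so the values are a description. The tested miRNAs most like miR-1839-5p were miR-1843a-5p (r = 0.994), miR-6539 (0.992) and miR-12191-3p (0.99). Those most like miR-1983 were miR-3068-5p (0.995), miR-3068-3p (0.994) and miR-320-3p (0.992). Those most like miR-1291 were miR-692 (0.989), miR-677-3p (0.984) and miR-877-3p (0.966). Those most like miR-1839-3p were miR-7054-5p (0.975), miR-7059-5p (0.97) and miR-3064-5p (0.965). Of these 12, miR-1843a-5p, both arms of miR-3068 and miR-677-3p come from hairpins that overlap an annotated snoRNA or scaRNA.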

How the data were processed

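The authors deposited read counts of mature miRNAs, not normalized, and the same miRNAs as pRPM, a scaled RPM. Each pRPM value was a constant per library times the count (100% of values gave the deposited count within 0.01 reads), and libraries of a group shared 1 pRPM total, so the whole reads are the deposited counts and the test on recovered reads is the test on counts. The totals differed between groups: 85006 in KO, 683476 in induced E518K, 938495 in induced WT, 138451 in untreated E518K and 685878 in untreated WT. Their origin is not given in the labels. STAR, bedtools and the build GRCm38.p6 are named in the submitters' processing notes, without versions; trimming, counting rule and strand are not stated in the labels. A further file, identical to the pRPM table, was not used here.

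Tests were run in edgeR 4.0.16 (R 4.3.3): a robust quasi-likelihood fit over 11 libraries in 5 groups, TMM scaling, filterByExpr (minimum count 10, total 15), Benjamini-Hochberg adjustment over 730 miRNAs, threshold 0.05, checked on simulated data. In the simulation only a minority of miRNAs changed, in both directions, in induced E518K alone. It therefore could not check the calls where most miRNAs shift, as in KO against WT. DESeq2 1.42.0, other scalings and leaving out each library were alternatives. A fit with the clone as a block held all 11 libraries, with the KO libraries as 1 block. It took the change upon induction from the pairs that share a clone number in the titles. Ratios within a library were compared by exact two-sided permutation tests. Intervals are Clopper-Pearson at 95% on counts divided by 2. The miRNAs named are the 4, all listed arms of the other DGCR8-independent miRNAs, those in snoRNA, scaRNA or tRNA genes, 5 arms of the miR-290 cluster and the 3 most similar profiles of each. The members, lists and tests were chosen with earlier results of these data known. No pair of replicates agreed within sampling noise (chi-square of their counts over its degrees of freedom, 24.3 to 557).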

Additional observations from a re-analysis of the deposited data

How the results depend on the processing

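The scaling of the libraries, the single KO clone, the single untreated library of each vector and the few reads of miR-1839-3p and miR-1291 limit these results. The cause of each change below was not tested. Clones link libraries only upon induction, where E518K clone 8 and WT clone 10 each give 1 pair. With the clone as a replicate block, an analysis chosen after seeing the data, 0 of 4 were called for the common induction and 20 of all miRNAs, against 4 of 4 and 349 without it.

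Scaling by the other DGCR8-independent miRNAs turned the calls against WT to 2 of 4 lower, beside 70.1% of all miRNAs in E518K and 74.9% in KO, both for E518K (log2 -1.01 for miR-1839-5p, -1.64 for miR-1839-3p, -0.94 for miR-1291) and for KO (-1.07, -1.93, -0.89 and, for miR-1983, -0.52). On that scale E518K against KO had 0 of 4 called (0.067 for miR-1839-5p, 0.29 for miR-1839-3p, 0.67 for miR-1983), induction 0 of 4 in E518K (0.60 for miR-1291, 0.39 for miR-1983) and 0 of 4 in WT (0.41 for miR-1839-3p, 0.16 for miR-1983; 480 of all miRNAs called). Untreated WT against KO had 1 of 4 called higher, beside 422 of all 730 miRNAs. Its values were 1.5 for miR-1839-5p, 1.52 for miR-1839-3p, 0.94 for miR-1291 and 0.35 for miR-1983. Untreated E518K against KO had 74 of all miRNAs called (miR-1291 -0.65). The interaction of miR-1983 was -0.23.

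The authors' scaling called 0 of 4 in E518K against KO and 1 of 4 for induction of E518K. It called 1 of 4 lower in untreated WT against KO, beside 34 of all miRNAs. It gave -0.032 for miR-1291 in untreated E518K against KO and interactions of -0.020 for miR-1839-3p and -0.82 for miR-1983. Untreated WT against KO had 4 of 4 called lower with total counts, DESeq2 size factors and the DESeq2 test. Beside them 215, 135 and 137 of all miRNAs were called lower. In untreated E518K against KO, miR-1291 was at -0.74 with total counts (69 of all miRNAs called), -0.56 with DESeq2 size factors and -0.56 with the DESeq2 test, and counts divided by 2 called 3 of 4 (223 of all). The interaction was 0.90 for miR-1839-5p and 0.59 for miR-1291 with total counts (92 of all miRNAs called), 0.27 for miR-1839-5p with DESeq2 size factors, 0.14 for it without the low-count filter, and 0.61 for it and 0.27 for miR-1291 with counts divided by 2. With miR-320-3p and miR-484 alone as the comparators, the log2 ratio of E518K minus KO was -0.388 for miR-1839-5p and -0.128 for miR-1839-3p, and with the miR-877 and miR-702 arms alone it was 1.07 for miR-1291.

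Leaving out 1 library at a time gave 1 to 4 of 4 called in untreated WT against KO (379 to 427 of all miRNAs). It gave 0 to 3 of 4 in untreated E518K against KO (64 to 214 of all miRNAs, with miR-1291 from -0.66 to 0.89). It gave 168 to 290 of all miRNAs for induction of WT, and 78 to 187 for the interaction. The interaction ran from -1.26 to 0.66 for miR-1839-5p, -0.51 to 1.69 for miR-1839-3p, -1.57 to 0.42 for miR-1291 and -1.12 to 0.88 for miR-1983. E518K minus KO ran from -0.152 to 0.0543 for the 5p share and, over the other DGCR8-independent miRNAs, from -0.108 to 0.225 for miR-1839-5p, -0.108 to 0.637 for miR-1839-3p and -0.465 to 0.448 for miR-1291.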

Other observations

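Which of the 4 small RNAs was most abundant differed between groups, a ratio chosen after its values were seen and therefore given without a test. miR-1983 held 52.6%, 60.6% and 49.5% of the counts of the 4 in E518K clones 8, 13 and 15 and 40.6%, 45.8% and 44.3% in the KO libraries, against 26.8%, 41.8% and 37.1% in WT clones 10, 12 and 16. The induced E518K libraries lay above all others. Within WT clone 10 the share was 26.8% with doxycycline and 26% without it, and within E518K clone 8 it was 52.6% with doxycycline and 46.9% without it. The single untreated WT library thus matched its own clone more closely than it matched the other WT clones. The single untreated E518K library did not: at 46.9% it lay closer to clone 15 (49.5%) than to its own clone 8 (52.6%).

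miR-412-3p, which has the seed of miR-1983, had 137, 115 and 87 counts in E518K clones 8, 13 and 15 and 0 in each KO library, against 26, 26 and 40 in WT clones 10, 12 and 16. In untreated E518K it had 2 counts and in untreated WT 0. A count of 0 in KO allows a share of at most 0.00287% to 0.0036% of miRNA counts (6 counts, since most small RNAs appear to be counted 2 times), in libraries where miR-1983 held 2.35% to 3.88%. The share of miR-412-3p in each WT library lay below that bound, since WT totals ran from 3394216 to 6128734. The 0 counts in KO therefore do not show a lower share than in WT.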
